A study of Mus musculus with 9 samples.

Results

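The genes described here build, guard and clear the protein import system of mitochondria. They were taken as a fixed list of 40 symbols: 9 genes of the outer membrane translocase, 6 carriers and relay proteins of the intermembrane space, 6 subunits of the inner membrane translocases, 6 matrix chaperones, 2 subunits of the processing peptidase, 3 matrix protease genes and 8 inner membrane or intermembrane space proteases and prohibitins. All 40 are in the table of 22527 gene symbols, each on 1 line, and none was listed at 0 in any library. The study measured ribosome-bound RNA in 3 fat depots of C57BL/6 mice aged 8 weeks, listed as wild type: brown fat (BAT), white fat under the skin of the groin (inguinal, iWAT) and white fat around the epididymis (eWAT). Ribosomes were pulled down from frozen tissue with an antibody against GFP. The sample labels do not say which cells carry a GFP tag or what drives it, and they give no treatment. The name of the deposited table pairs adiponectin, a hormone gene of adipocytes, with the ribosome pulldown, without saying how it was used. Each depot has 3 libraries, and the labels do not say whether they come from separate animals, so p-values measure the spread between these libraries, which may be technical. The values are FPKM (fragments per kilobase of transcript scaled by the mapped reads of the library), a level per length that can be compared between genes.

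Nearly all mitochondrial proteins are encoded in the nucleus, made on cytosolic ribosomes and imported. A precursor crosses the outer membrane through the TOM complex, is passed on by small TIM chaperones or the disulfide relay of the intermembrane space, and enters the inner membrane or matrix through the TIM22 or TIM23 complex. In the matrix an Hsp70 motor pulls it in, a peptidase removes its targeting sequence, chaperonins fold it, and ATP-dependent proteases remove what is damaged. Brown adipocytes are densely filled with mitochondria, whose uncoupling protein Ucp1 turns the proton gradient into heat.

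The table gives no read totals. Depth estimated from the spacing of low values was 11.1 to 21.2 M reads in BAT, 2.91 to 4.70 M in iWAT, and 16.4, 4.46 and 4.57 M in eWAT 1, 2 and 3, so estimated depth ran with depot except for eWAT 1. The estimate is least certain for eWAT 1, where 44.4% of low values lay within 0.15 of a whole read, against 51.7% to 63.3% in the other libraries. BAT 3 is brown fat by its title and source, while its tissue field names inguinal fat. Its Ucp1 level was 3054 FPKM, beside 2626 and 2434 in BAT 1 and 2 and at most 3.38 in the 6 white libraries. All 10 brown adipocyte markers were in the table, with summed levels of 25320 to 28250 in BAT, 233 to 539 in iWAT and 59.5 to 84.5 FPKM in eWAT. The 10 general adipocyte markers summed to 28680 to 38230, 46560 to 84850 and 73840 to 99100 FPKM, and the 5 white adipocyte markers to 98.8 to 260, 1901 to 5727 and 6543 to 10300 FPKM. Fabp4 made up much of the general sums, at 21770 to 26120 FPKM in BAT and 29620 to 52540 in the white libraries. In the fit described below, 4 of these 10 genes were called higher and 1 lower in BAT against iWAT. Against eWAT, 1 was called higher and 4 lower. Markers of other cells moved with depot as well. The 9 epithelial markers summed to 26.0 to 56.6, 181 to 508 and 70.9 to 248 FPKM in BAT, iWAT and eWAT, the 10 muscle markers to 106 to 204, 1841 to 2524 and 240 to 1324, and the 7 stromal markers to 3.90 to 17.3, 85.0 to 353 and 65.7 to 173. Krt5, Krt14, Krt15 and Dsp made up most of the epithelial sums, while Krt18, Epcam and Cdh1 reached at most 0.633 FPKM in any library. Macrophage (6 genes), endothelial (5) and lymphocyte (6) markers summed to at most 9.84, 3.95 and 1.68 FPKM in any library. The part of these cells in the results was not tested, and in such tissue samples fewer cells of a type and less RNA per cell cannot be told apart.

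Library iWAT 1 stood apart from its depot. Across the genes tested its log2 values correlated at 0.945 to 0.963 with eWAT and at 0.899 and 0.934 with iWAT 2 and 3. Of the 40 genes, 34 were higher in iWAT 1 than the mean of iWAT 2 and 3, by a median of 0.53 on the log2 scale, beside 6015 of all 10374 genes tested and a median of 0.18. Without iWAT 1 the log2 differences of BAT from iWAT rose from 4.28 to 4.98 for Grpel1, from 2.45 to 3.05 for Timm8b, from 2.54 to 3.04 for Timm17b and from 1.93 to 2.38 for Trap1, and all 4 kept their calls. Over 9997 genes, the deviation of iWAT 1 from iWAT 2 and 3 correlated with log2 transcript length at -0.37 (Pearson). That of eWAT 1 from eWAT 2 and 3 did so at -0.34. Over the 40 genes these values were -0.21 and -0.43. Differences of iWAT from eWAT correlated with length at 0.27 over all genes and 0.04 over the 40. The part of length in the levels of single genes was not tested.

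Import and quality control transcripts were higher in BAT than in either white depot. Of the 40, 34 rose in BAT against iWAT and none fell, with a median log2 difference of 1.72, at an adjusted p under 0.05 (limma on log2(FPKM + 1), Benjamini-Hochberg over 10374 genes). Of all genes tested, 34.5% were called higher and 22.9% lower in BAT in this comparison (3583 and 2378 genes), and their median was 0.23. With median-ratio scaling that split was 3008 higher and 2913 lower, and with quantile normalization 2936 and 2851. Against eWAT, 31 rose and none fell, with a median of 1.34, where 20.2% of all genes were called higher and 13.5% lower and the median was -0.02. The 3 BAT libraries lay above the 3 iWAT libraries for 36 of the 40 genes, and above the 3 eWAT libraries for 35 and below them for 1 (Tomm34). Of all 10374 genes tested, the BAT libraries lay above the iWAT libraries for 3993 and below them for 2821. Against eWAT they lay above for 3317 and below for 2350. In either direction, groups did not overlap for 65.7% of all genes in the first comparison and for 54.6% in the other. The 40 genes together held, as a share of all FPKM in a library, 1.12% to 1.2% in BAT, 0.483% to 0.609% in iWAT and 0.595% to 0.639% in eWAT. In BAT 19 of the 40 had a mean of at least 100 FPKM, against 9 in iWAT and 12 in eWAT.

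Depth runs with these comparisons. Against eWAT 1 alone, the 1 white library with a high depth estimate, the BAT mean was higher for 38 of the 40 genes. The median ratio was 2.47, from 0.668 (Oma1) to 7.92 (Grpel1). The same count was not made over all genes tested. Without eWAT 2 and 3, which leaves 1 eWAT library that is assumed to vary like the other groups, 18 of the 40 were called higher in BAT, with a median of 1.23. In that fit 994 of all 9892 genes were called higher and 417 lower, with a median of 0.19.

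**Figure D1:**
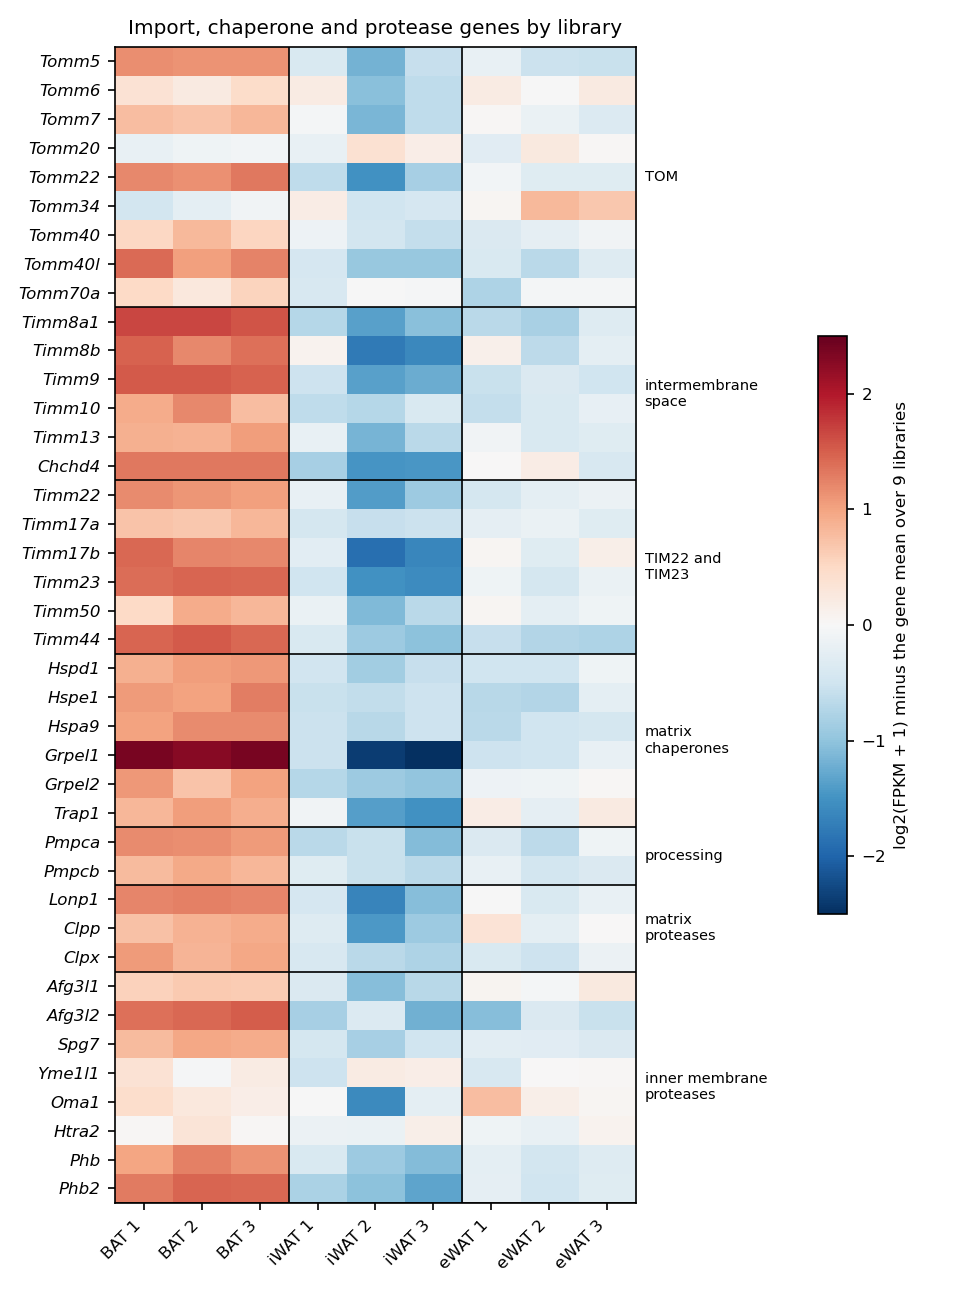
Each row is 1 of the 40 genes, grouped by role, and each column 1 library; colour gives log2(FPKM + 1) minus the mean of that gene over the 9 libraries. The BAT columns are red in most rows but not for Tomm20 and Tomm34, and iWAT 1 is the highest of the iWAT columns for 31 of the 40 genes.

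The outer membrane translocase was divided. Of its 9 genes, 6 rose in BAT against iWAT (median log2 difference 1.02) and 6 of 9 against eWAT (0.84). Tomm40, the pore of the complex (chromosome 7, 20286662 to 20300787, protein-coding, build mm9, which all coordinates use), was at 81.7, 99.9 and 82.2 in BAT, 51.6, 40.7 and 36.9 in iWAT and 44.2, 48.6 and 53.4 FPKM in eWAT. BAT was above every white library, by log2 differences of 1.02 (SE 0.21, adjusted p = 0.00301) and 0.84 (adjusted p = 0.0131, a call lost without BAT 2). Tomm20, the receptor that binds N-terminal targeting sequences (chromosome 8, 129458043 to 129469723), was at 264, 279 and 287 in BAT, 263, 389 and 337 in iWAT and 245, 355 and 306 FPKM in eWAT. The 3 depots overlapped, and the differences of -0.23 and -0.11 did not pass (SE 0.23, adjusted p = 0.398 and 0.731). With quantile normalization Tomm20 was called lower in BAT than in iWAT, at -0.85. The 4 highest values of Tomm20 were in iWAT 2 and 3 and eWAT 2 and 3, the libraries with the highest epithelial marker sums (220 to 508 FPKM), whose part was not tested.

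The other genes of the outer membrane were mixed, and some rose in both comparisons while others did not. Tomm22, the central receptor, was at 265 ± 15.4 in BAT against 58.0 ± 17.3 in iWAT and 96.8 ± 8.88 FPKM in eWAT (SD, n = 3). The small subunit Tomm5 was at 372 ± 5.64 against 106 ± 28.7 and 127 ± 19.4 FPKM, and Tomm40l, a paralog of the pore, at 52.7 ± 7.07 against 12.6 ± 3.07 and 15.6 ± 2.14 FPKM. All 3 rose in both comparisons, as did the small subunit Tomm7 (log2 differences of 1.38 and 0.93). The Tomm7 call against eWAT (adjusted p = 0.0253) was lost without BAT 1, BAT 2, BAT 3, eWAT 2 or eWAT 3. Tomm6, another small subunit, was at 586, 535 and 626 in BAT, 527, 222 and 294 in iWAT and 528, 451 and 531 FPKM in eWAT. Its rise against iWAT (0.84, adjusted p = 0.0345) was lost without BAT 1, BAT 2, BAT 3, iWAT 2 or iWAT 3 and under both other scalings, and against eWAT its difference of 0.21 did not pass (adjusted p = 0.601). Tomm70a, the receptor for carrier precursors, passed against eWAT at 0.73 (adjusted p = 0.047), a call lost without any 1 of the BAT or eWAT libraries or iWAT 3, and not against iWAT at 0.59 (adjusted p = 0.0682). Tomm34, a mainly cytosolic cochaperone, was at 4.73, 5.61 and 6.37 in BAT, 7.89, 4.52 and 4.87 in iWAT and 7.11, 12.8 and 11.5 FPKM in eWAT, lower in every BAT library than in any eWAT one, with a difference of -0.77 (adjusted p = 0.0544) that passed under both other scalings.

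All 6 genes of the intermembrane space rose in BAT against both depots, with median log2 differences of 2.5 and 1.49. Timm8a1, a small TIM chaperone (chromosome X, 131071795 to 131076404), was at 110, 111 and 103 in BAT, 20.5, 12.7 and 16.0 in iWAT and 20.9, 19.1 and 27.1 FPKM in eWAT. BAT was above every white library, by 2.67 (SE 0.23, adjusted p = 2.3e-05) against iWAT and 2.24 (adjusted p = 6.29e-05) against eWAT. Timm9, which forms the carrier chaperone with Timm10 (chromosome 12, 72224160 to 72237662), was at 84.2, 84.0 and 80.9 in BAT, 19.5, 10.4 and 11.5 in iWAT and 18.9, 21.7 and 19.7 FPKM in eWAT, with differences of 2.55 and 2.0 (adjusted p = 3.92e-05 and 0.000179). Chchd4, the oxidoreductase of the disulfide relay that traps cysteine-rich precursors (chromosome 6, 91414270 to 91423417), was at 69.2, 68.9 and 68.7 in BAT, 14.9, 9.17 and 9.24 in iWAT and 27.4, 31.0 and 20.2 FPKM in eWAT. Here the 3 depots were all separate, with BAT highest and iWAT lowest, and the differences from BAT were 2.56 and 1.38 (adjusted p = 4.17e-05 and 0.00187). Timm8b, Timm10 and Timm13 rose by 2.45, 1.55 and 1.61 against iWAT and by 1.60, 1.36 and 1.19 against eWAT. The Timm8b call against eWAT (adjusted p = 0.0177) was lost without BAT 1, BAT 3, eWAT 2 or eWAT 3.

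All 6 subunits of the inner membrane translocases also rose in both comparisons, with medians of 2.09 and 1.34. Timm23, the channel of the presequence pathway (chromosome 14, 32993348 to 33015084), was at 529, 557 and 547 in BAT, 143, 70.3 and 67.3 in iWAT and 188, 148 and 179 FPKM in eWAT. Every BAT library was above every white one, and the differences were 2.62 (SE 0.29, adjusted p = 8.28e-05) and 1.67 (adjusted p = 0.00151). Timm17b, a TIM23 subunit encoded on chromosome X (7476483 to 7485477), was at 34.6, 29.5 and 29.3 in BAT, 9.96, 2.57 and 3.25 in iWAT and 12.6, 9.73 and 13.6 FPKM in eWAT, with iWAT 1 nearer to eWAT than to its own depot. It differed by 2.54 and 1.31, and the call against eWAT (adjusted p = 0.0212) was lost without BAT 1, BAT 2, BAT 3 or eWAT 2. Timm44, which tethers the Hsp70 motor to the channel (chromosome 8, 4259731 to 4275913), was at 90.7, 95.8 and 89.5 in BAT, 24.7, 16.8 and 15.5 in iWAT and 21.5, 19.3 and 18.8 FPKM in eWAT. Its differences from the white depots, 2.24 and 2.16, were close to each other (adjusted p = 4.54e-05 and 5.68e-05). Timm17a, the more abundant paralog of Timm17b, was at 341 ± 19.6 in BAT, 142 ± 7.54 in iWAT and 174 ± 8.49 FPKM in eWAT. The carrier translocase channel Timm22 and the receptor Timm50 rose by 1.93 and 1.41 against iWAT and by 1.37 and 0.86 against eWAT. The Timm50 call against eWAT (adjusted p = 0.0304) was lost without BAT 2, BAT 3, eWAT 2 or eWAT 3.

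**Figure D2:**
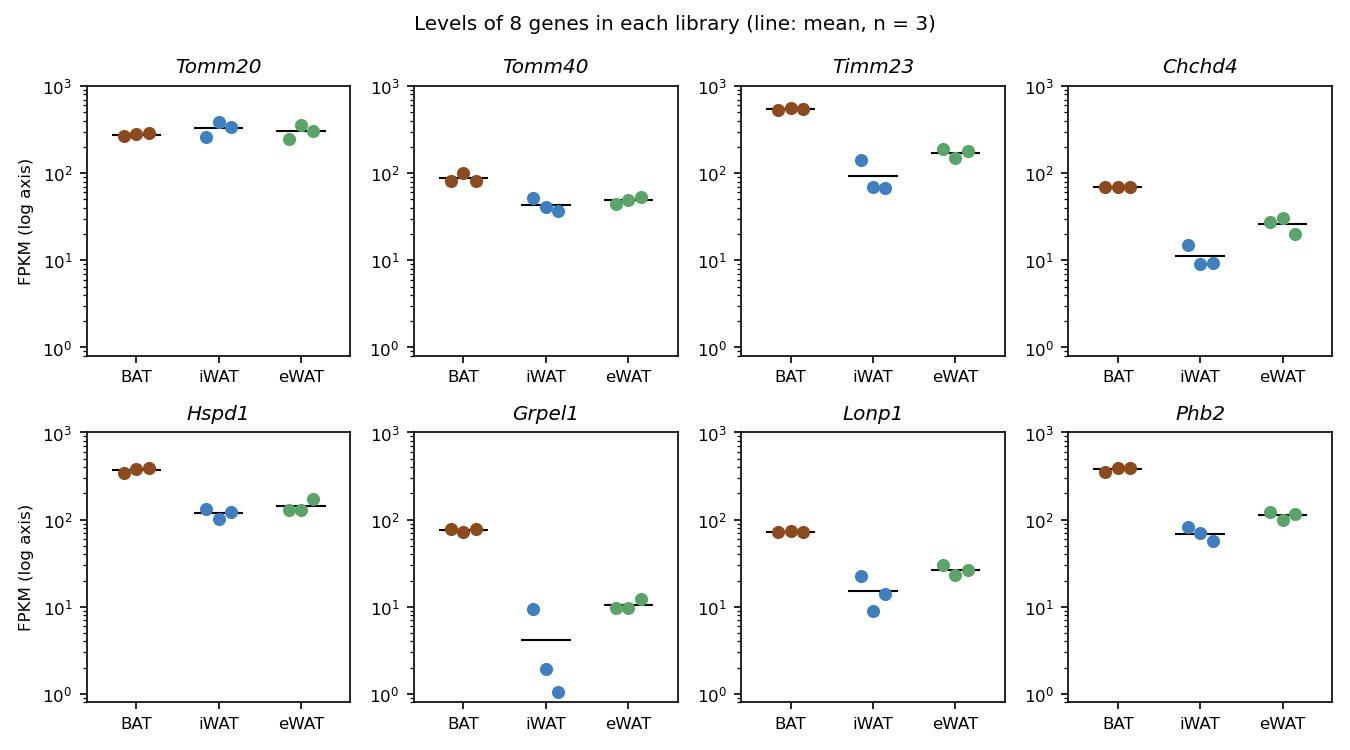
FPKM on a log axis for 8 genes, 1 point per library and a line at the mean of 3. Tomm20 overlaps across the depots, Timm23, Chchd4, Lonp1 and Phb2 step down from BAT to eWAT to iWAT, and Grpel1 spreads from 1.05 to 9.48 FPKM within iWAT.

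The matrix chaperones included the most abundant of the 40 transcripts in BAT. All 6 rose against iWAT (median 1.76) and 5 of 6 against eWAT (1.52). Hspe1, the co-chaperonin Hsp10 (chromosome 1, 55144976 to 55148151), was at 1095, 1043 and 1262 in BAT, 353, 341 and 366 in iWAT and 322, 312 and 443 FPKM in eWAT. Hspd1, the chaperonin Hsp60 (chromosome 1, 55134679 to 55145087), was at 344, 384 and 392 in BAT, 132, 101 and 123 in iWAT and 131, 130 and 171 FPKM in eWAT. Hspa9, the matrix Hsp70 of the import motor (chromosome 18, 35097068 to 35114011), was at 331, 370 and 371 in BAT, 113, 101 and 114 in iWAT and 102, 115 and 121 FPKM in eWAT. In each of the 3 genes the BAT libraries were above all white ones, while iWAT and eWAT overlapped. Their log2 differences against iWAT were 1.67, 1.65 and 1.70, with adjusted p = 0.0002, 0.000202 and 9.19e-05. Against eWAT they were 1.67, 1.38 and 1.66, with adjusted p = 0.000243, 0.000736 and 0.000127. Among pseudogenes named after a gene of the list, the annotation holds 4 of Hspe1 and 1 of Hspa9, none of them in the table. Copies annotated under other names were not looked for, and reads from near-identical copies cannot be told apart here.

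Grpel1, the nucleotide exchange factor that lets Hspa9 release its client (chromosome 5, 36807647 to 36816729), showed the largest difference of the 40 in both comparisons. It was at 78.5, 72.6 and 77.4 in BAT, 9.48, 1.93 and 1.05 in iWAT and 9.61, 9.77 and 12.4 FPKM in eWAT. BAT was far above every white library, iWAT 2 and 3 were the lowest, and iWAT 1 lay just below eWAT 1. The log2 differences were 4.28 (SE 0.49, adjusted p = 9.29e-05) and 2.74 (SE 0.49, adjusted p = 0.00167). Its paralog Grpel2 was at 4.39 ± 0.701 in BAT, 0.532 ± 0.146 in iWAT and 1.67 ± 0.165 FPKM in eWAT, and rose by 1.81 and 1.01 on a scale that compresses such low levels. Trap1, the mitochondrial Hsp90, was at 84.3 ± 6.18, 24 ± 14.9 and 46.1 ± 7.62 FPKM, and passed against iWAT (1.93, adjusted p = 0.0014) but not against eWAT (0.87, adjusted p = 0.0793).

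Both subunits of the processing peptidase, which cuts off targeting sequences, rose in both comparisons. The catalytic subunit Pmpcb was at 114 ± 6.48 in BAT, 43.7 ± 6.04 in iWAT and 49.2 ± 4.83 FPKM in eWAT. Pmpca, the substrate-binding subunit, was listed at 17.2 ± 0.745, 3.92 ± 0.896 and 5.47 ± 1.2 FPKM.

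Of the matrix proteases, Lonp1, the Lon protease that clears oxidised proteins (chromosome 17, 56753724 to 56766326), was at 72.0, 73.8 and 71.6 in BAT, 22.4, 8.98 and 14.1 in iWAT and 30.2, 23.0 and 26.7 FPKM in eWAT. BAT was above both white depots without overlap, by 2.27 (SE 0.29, adjusted p = 0.0002) and 1.42 (adjusted p = 0.00417). Clpx, the unfoldase of the ClpXP protease, rose by 1.58 and 1.31. Its proteolytic partner Clpp was at 159 ± 10.9, 49.4 ± 19.5 and 91.9 ± 19.1 FPKM, and passed against iWAT (1.74) but not against eWAT (0.80, adjusted p = 0.056).

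The proteases of the inner membrane divided. Afg3l2, a subunit of the m-AAA protease that faces the matrix (chromosome 18, 67564421 to 67608820), was at 57.7, 59.8 and 63.1 in BAT, 11.7, 16.8 and 8.80 in iWAT and 9.79, 16.5 and 14.4 FPKM in eWAT. BAT was separate from both white depots, by 2.23 and 2.10 (adjusted p = 0.000147 and 0.000247). Its partner Spg7 (paraplegin) rose by 1.48 and 1.2, and its paralog Afg3l1 by 1.34 against iWAT, while the Afg3l1 difference of 0.54 against eWAT did not pass (adjusted p = 0.092). The prohibitin ring, which surrounds the m-AAA protease, was high in BAT. Phb2 (chromosome 6, 124662340 to 124666968) was at 351, 391 and 387 in BAT, 82.0, 69.5 and 56.5 in iWAT and 121, 100.4 and 116 FPKM in eWAT, 3 depots without overlap, with differences of 2.44 and 1.74 (adjusted p = 2.3e-05 and 0.000173). Phb (chromosome 11, 95528271 to 95542087) was at 202, 245 and 225 in BAT, 78.6, 54.2 and 47.9 in iWAT and 86.4, 74.5 and 82.0 FPKM in eWAT, with BAT above all white libraries by 1.91 and 1.46 (adjusted p = 0.000142 and 0.000868).

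The other 3 proteases did not pass in either comparison in this fit over all 9 libraries. Yme1l1, the i-AAA protease that faces the intermembrane space, was at 10.7 ± 1.56 in BAT, 9.22 ± 2.6 in iWAT and 8.56 ± 1.49 FPKM in eWAT. Htra2, a serine protease of the intermembrane space, was at 20.7 ± 2.58, 18.2 ± 2.37 and 17.9 ± 1.81 FPKM. Oma1, the stress-activated protease that cleaves the fusion protein Opa1, was at 3.97 ± 0.487, 1.92 ± 1.40 and 4.2 ± 1.52 FPKM, with 0.340 in iWAT 2, and differed by 0.91 (adjusted p = 0.0654) and -0.03 (adjusted p = 0.957). With array weights Oma1 passed against iWAT at 0.78 (adjusted p = 0.0342). Leaving out 1 library brought some values past the threshold: Oma1 against iWAT without iWAT 1, Tomm70a against iWAT without eWAT 1, and against eWAT Trap1 and Afg3l1 without iWAT 1 (Afg3l1 also without iWAT 2), Clpp without iWAT 1, iWAT 2 or eWAT 1, and Tomm34 (lower in BAT) without iWAT 1, iWAT 2 or eWAT 1.

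**Figure D3:**
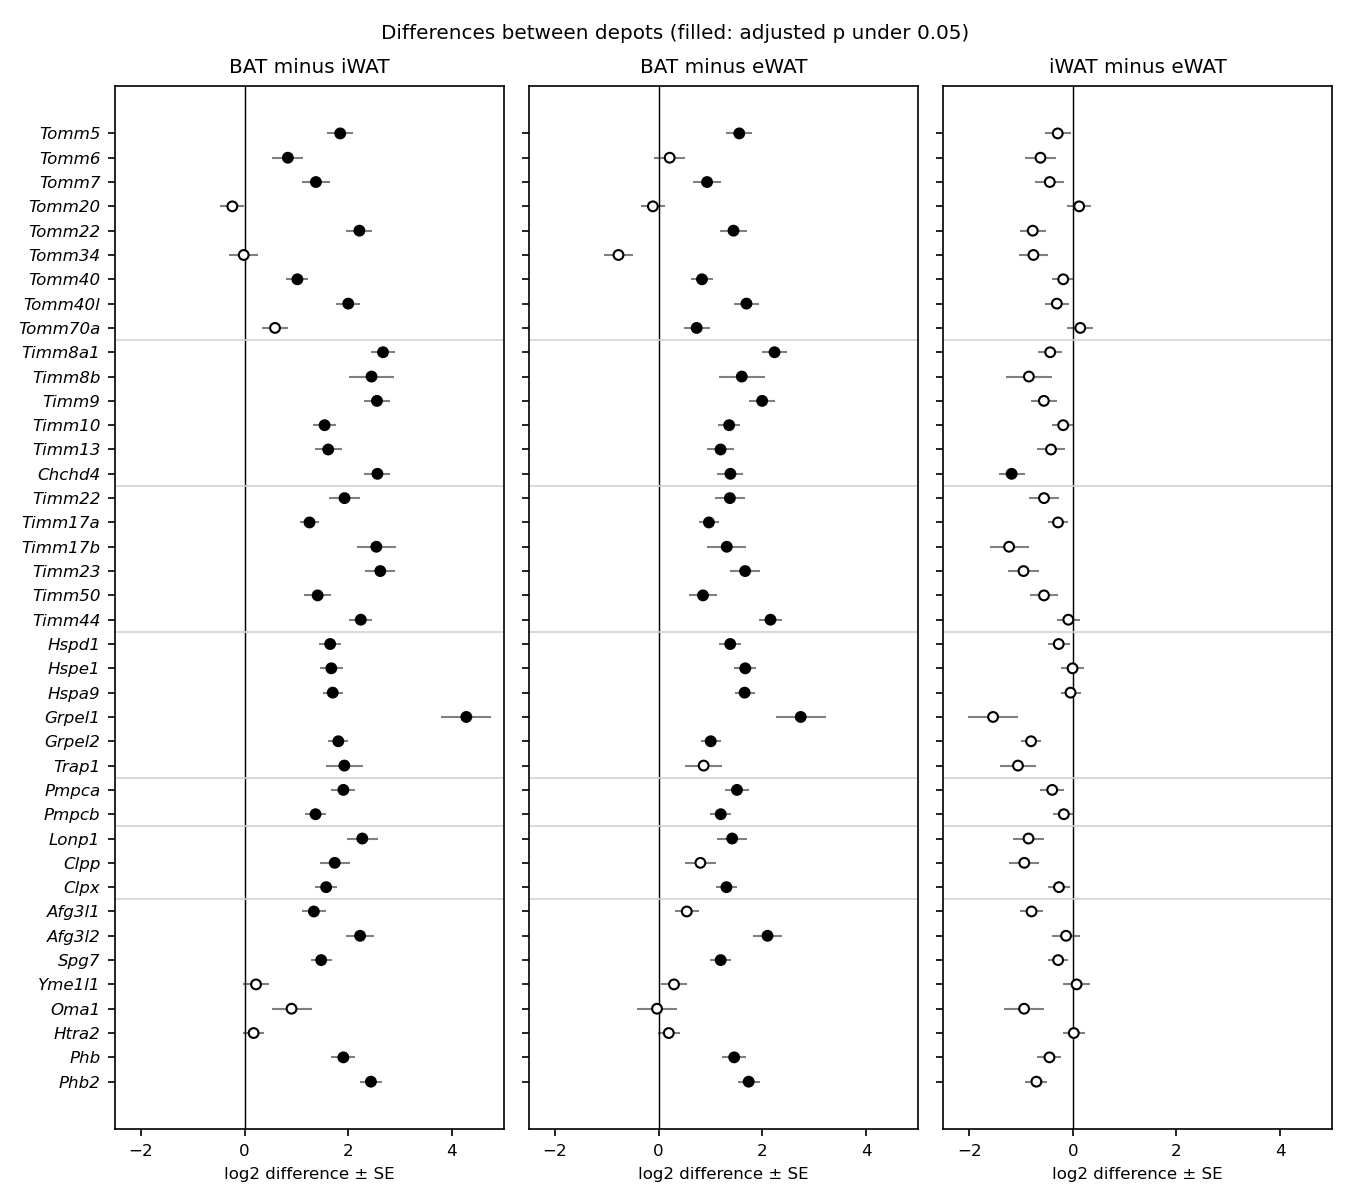
Log2 difference with its standard error for each of the 40 genes, in the same order as the roles above; filled points passed at an adjusted p under 0.05. In both comparisons with BAT the points lie to the right of 0 except Tomm20, Tomm34 and, against eWAT, Oma1, and between iWAT and eWAT 1 point is filled.

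Between the white depots 1 of the 40 genes was called. Chchd4 was lower in iWAT than in eWAT by 1.18 (log2 difference -1.18, SE 0.25, adjusted p = 0.046), where 1.5% of all genes tested were called lower and 0.231% higher in iWAT. That call was lost under 16 of 20 alternatives, among them leaving out any 1 library other than iWAT 1. It was also lost with the replicate block in a fit of these 2 depots alone (adjusted p = 0.0582), where same-numbered libraries were taken as pairs, and held with the block in the fit of all 9 (adjusted p = 0.0495). The median over the 40 genes was -0.44, beside -0.18 for all genes. The 3 iWAT libraries lay below the 3 eWAT libraries for 12 of the 40 genes and above them for none. Of all 10374 genes tested, they lay below for 2028 and above for 322, which is 22.7% in either direction. The 12 were Tomm22, Chchd4, Timm17a, Timm23, Grpel1, Grpel2, Lonp1, Clpp, Afg3l1, Spg7, Oma1 and Phb2. Without iWAT 1, 22 of the 40 genes were called lower in iWAT and none higher, with a median of -0.66. In that fit 2859 of 10277 genes were called lower and 456 higher, with a median of -0.25. General adipocyte marker sums were 84850 FPKM in iWAT 1 and 46560 and 64920 in iWAT 2 and 3, and epithelial sums were 181, 508 and 360 FPKM. The part of these differences in the result was not tested.

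Ratios of the transcripts of paralogs or partner subunits were then taken within each library. No protein was measured, so they do not give the make-up of a complex. With 3 libraries against 3 the exact permutation test cannot give a p below 0.1, and after adjustment over 10 pairs and 3 comparisons the smallest value was 0.167, so no ratio could pass. The log2 ratio of Grpel1 to Grpel2 was 3.99, 4.34 and 4.06 in BAT, 3.77, 1.99 and 1.33 in iWAT and 2.61, 2.63 and 2.74 in eWAT. BAT was above both depots, but iWAT 1 was close to BAT. The ratio of Tomm40 to Tomm40l was lower in BAT, at 0.741 ± 0.351 against 1.79 ± 0.121 and 1.65 ± 0.231 (SD, n = 3), with no overlap. Afg3l1 to Afg3l2 was at -1.86 ± 0.0544 in BAT and -0.261 ± 0.446 in eWAT without overlap, and at -1.02 ± 0.785 in iWAT, where iWAT 2 lay level with BAT. Timm17a to Timm17b was at 3.46 ± 0.180 in BAT, 5.03 ± 0.970 in iWAT and 3.87 ± 0.323 in eWAT, overlapping between BAT and eWAT.

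Ratios of partner subunits followed. The log2 ratio of Hspd1 to Hspe1 was -1.60 ± 0.137, -1.58 ± 0.165 and -1.31 ± 0.0552 in BAT, iWAT and eWAT, a spread well under the differences of either gene, though all eWAT values were above the other depots. Phb to Phb2 was at -0.750 ± 0.0645, -0.219 ± 0.148 and -0.472 ± 0.0369, with no overlap between any of the depots. Timm9 to Timm10 was at -0.422 ± 0.189 in BAT, above iWAT (-1.50 ± 0.537) and eWAT (-1.09 ± 0.194). Clpp to Clpx was at 1.48 ± 0.193 in BAT and 1.34 ± 0.452 in iWAT, and higher in eWAT at 2.01 ± 0.301. Pmpca to Pmpcb was at -2.72 ± 0.0959 in BAT, above -3.50 ± 0.289 and -3.19 ± 0.294. Timm8b to Timm8a1 was at 1.69 ± 0.162, 1.96 ± 0.748 and 2.36 ± 0.408.

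**Figure D4:**
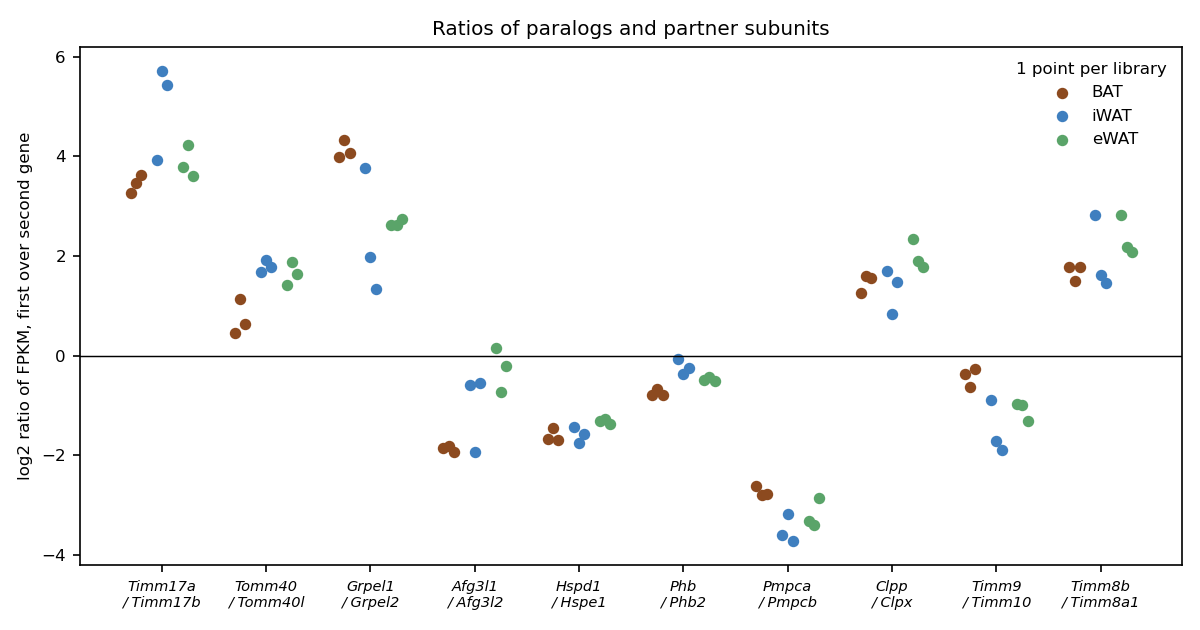
Log2 ratio of the FPKM of the first gene to that of the second for 10 pairs, 1 point per library, coloured by depot. Grpel1 over Grpel2 is highest in BAT and Tomm40 over Tomm40l lowest, while Hspd1 over Hspe1 lies between -1.75 and -1.27 in all 9 libraries.

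Some of these levels may include reads of neighbours. Whether counting used the strand is not given in the sources used here, and without strand, reads of genes that overlap on opposite strands cannot be told apart. Tomm6 and Prickle4 lie on the same strand, so for that pair strand would not help. Annotated exons shared with another gene covered 76.0% of the exon bases of Tomm6 (with Prickle4), 67.8% of Tomm40l (with Nr1i3), 20.4% of Pmpca (with Inpp5e), 19.4% and 16.8% of Htra2 (with Loxl3 and Aup1), 15.4% of Timm8b (with AU019823) and 11.6% of Grpel1 (with Tada2b), so their levels and ratios are uncertain. Hspd1 and Hspe1 lie head to head and share 112 bases (55144976 to 55145087), 4.24% and 7.60% of their exon bases.

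That shared promoter and 4 others are shown because they hold the motifs searched for in genes that rose together. RefSeq promoter windows (GRCm38.p6, from 250 bases before to 50 after the start) were available for 34 of the 40, and stretches of 30 bases were placed on mm9 by exact match. Capitals mark the motif, and each line reads 5′ to 3′ on the strand of the named gene.
Hspe1, heat shock element, chr1:55144897-55144926 (+): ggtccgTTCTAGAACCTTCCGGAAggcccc
Timm9, heat shock element, chr12:72237843-72237872 (-): attaggctTTCTAGAAATTTCgacagattc
Timm8b, estrogen-related receptor element, chr9:50411900-50411929 (+): tttcgagggcTCAAGGTCActctacaaccc
Grpel1, NRF1 core, chr5:36807787-36807816 (+): aaggggcgtccGCGCATGCtcagtgtgggc
Timm23, ETS element, chr14:33015107-33015136 (-): tcgcgcttcccACTTCCGGgccgcacacag
The annotation on mm9 places the Hspe1 stretch in an exon of Hspd1, that of Timm8b in an untranslated exon of Sdhd (a subunit of respiratory complex II), that of Timm23 in one of Parg, that of Timm9 in one of 2700049A03Rik, and that of Grpel1 in its own first exon.

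Matches were sought on both strands and are descriptions of letters, not of binding. The heat shock element (GAANNTTC, any 2 bases, then GAA) occurred in 3 of 34 windows (8.82%), those of Timm9, Hspd1 and Hspe1, against 0.662% of the windows of all 27025 genes. Hspd1 and Hspe1 share 1 site, in which 2 matches on opposite strands overlap. The ETS element (CCGGAAGT) occurred in 5 (14.7%, against 4.31%): Tomm70a, Timm10, Timm23, Pmpcb and Phb2. The NRF1 core (GCATGCGC) occurred in 3 (8.82%, against 3.05%): Timm13, Grpel1 and Clpx. The estrogen-related receptor element (TCAAGGTCA) occurred in Timm8b alone (2.94%, against 0.466%), and the cyclic AMP element (TGACGTCA) in Trap1 alone (2.94%, against 2.03%).

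Other genes of import and mitochondrial quality control moved in the same direction. Of 48 tested, 40 rose and 2 fell in BAT against iWAT (median 1.46), and 32 rose and 1 fell against eWAT (median 1.07). Apoo, a subunit of the MICOS complex that shapes cristae, was at 128, 154 and 154 in BAT, 16.6, 1.68 and 1.55 in iWAT and 11.5, 12.5 and 14.4 FPKM in eWAT, with differences of 4.88 and 3.41. Its iWAT values fall in the same order as those of Grpel1, with iWAT 1 near eWAT. Also among the largest rises of at least 1 comparison were Immp2l, an inner membrane peptidase (3.0 and 2.25), Dnaja3, a cochaperone of Hspa9 (2.81 and 2.35), Oxa1l, the insertase (2.75 and 2.02), and Lace1 (2.455 and 2.88). The genes that fell, Hspa1l (-2.49 and -1.54) and Bag6 (-1.05 against iWAT), encode a cytosolic Hsp70 and a cytosolic chaperone of membrane proteins. Both are part of this list and of its counts. Hspa1l was at 13.1, 6.50 and 8.82 in BAT, 37.4, 74.1 and 62.8 in iWAT and 13.6, 47.6 and 34.6 FPKM in eWAT. The epithelial marker sums share its order within each white depot, and their part, like that of transcript length, was not tested.

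Other mitochondrial lists rose with the import genes, while cytosolic chaperones were called in both directions against iWAT. Beside the counts of each list, 34.5% of all genes tested were called higher and 22.9% lower in BAT against iWAT. Against eWAT these shares were 20.2% and 13.5%. All 74 respiratory chain subunits were called against iWAT, 72 higher and 2 lower (Atp5g1 and Atp5g3, which encode copies of the same ATP synthase subunit), with a median of 2.47, and 70 higher and 2 lower against eWAT (2.09). Of 76 mitochondrial ribosomal proteins, 70 rose against iWAT (1.62) and 48 against eWAT (1.08). Of 30 cytosolic chaperones, 6 rose and 8 fell against iWAT (median -0.06), and 3 fell against eWAT (-0.05). Hspa1a, an inducible cytosolic Hsp70, was at 39.3, 13.9 and 24.6 in BAT, 92.7, 258 and 195 in iWAT and 32.7, 134 and 118 FPKM in eWAT, and fell by 2.76 and 1.72 (log2 differences of -2.76 and -1.72), with BAT 1 above eWAT 1. Reads of Hspa1a and its near-identical copy Hspa1b cannot be told apart, so its level is uncertain. Its order within each white depot is that of the epithelial marker sums, and all 8 genes that fell against iWAT were lowest in iWAT 1 and eWAT 1 of their depots, as those sums were. The part of the epithelial cells was not tested. Of 14 regulators of the mitochondrial stress response, 8 rose and 1 fell against iWAT (0.90), and 4 rose and 1 fell against eWAT (0.30). The transcription factors Cebpb (2.05 and 2.59) and Atf5 (2.03 and 1.08), with 0610009O20Rik (1.79 and 1.48) and the kinase Eif2ak1 (1.355 and 1.13), were called higher in BAT in both comparisons. Ddit3 was called higher against iWAT only (2.0), where the libraries overlapped and iWAT 3 was listed at 0. Hsf1, the heat shock factor, was at 13.5, 9.93 and 12.3 in BAT, 23.7, 66.5 and 43.6 in iWAT and 10.7, 32.0 and 33.6 FPKM in eWAT, and was lower in BAT than in iWAT (log2 difference -1.72). It was lowest in iWAT 1 and eWAT 1 of the white libraries, as were the epithelial marker sums, whose part was not tested. Chac1, an enzyme of glutathione breakdown, was lower than in eWAT (-1.36) at no more than 2.54 FPKM anywhere. Atf4 itself was at 90.1 to 166 in BAT, 93.4 to 168 in iWAT and 88.2 to 111 FPKM in eWAT, and passed in neither comparison.

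**Figure D5:**
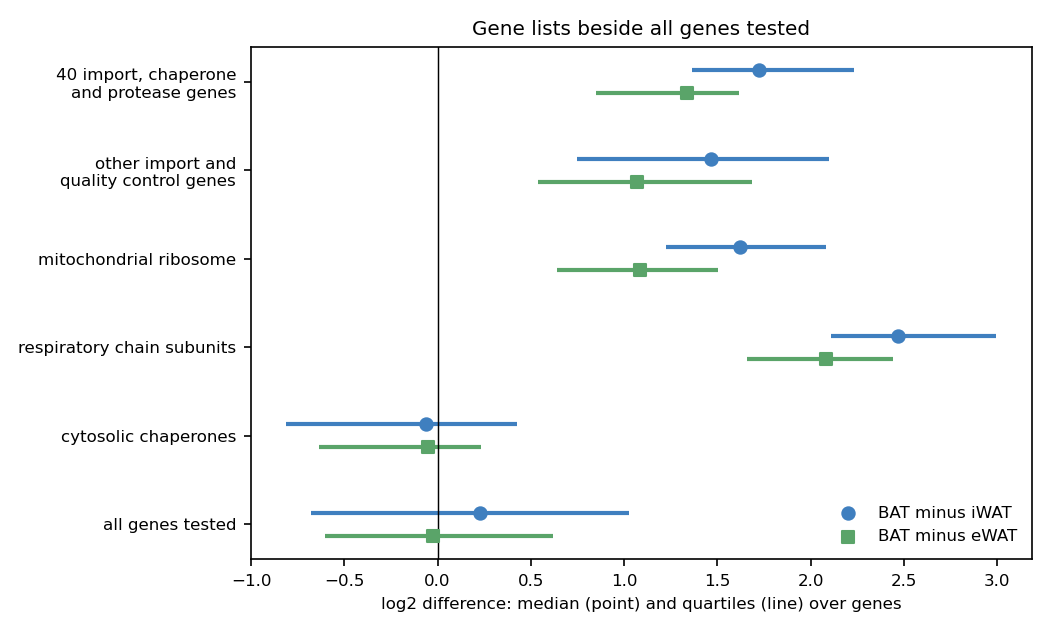
Median (point) and quartiles (line) of the log2 differences over the genes of each list, for BAT minus iWAT and BAT minus eWAT. The 40 genes have medians of 1.72 and 1.34, below the respiratory chain at 2.47 and 2.09, near the mitochondrial ribosome, and apart from the cytosolic chaperones and all genes tested, whose medians lie near 0.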

How the data were processed

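Ribosome-bound RNA was depleted of ribosomal RNA and sequenced as single-end libraries, per the labels' protocols. The authors used TopHat and Cufflinks on mm9, per the submitters' processing notes, without versions. The deposited values are read as FPKM because Cufflinks is named and values are fractional with unequal sums. The table's header names no unit. Annotation, filters and strand are not given in the sources used here.

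Groups follow the titles. Symbols on more than 1 line (259) were reduced to the line with the highest mean. Genes reaching 1 FPKM in 3 or more libraries (10374) were fitted as log2(FPKM + 1) with limma 3.58.1 in R 4.3.3 (empirical Bayes with an intensity trend, 1 mean per depot over all 9 libraries, 6 residual degrees of freedom) and called at a Benjamini-Hochberg adjusted p of 0.05. The fit was tested on simulated data. Pair ratios were compared with two-sided exact permutation tests (scipy 1.17.1). Fold changes on this scale understate changes of low genes. Coordinates come from GENCODE vM1 on mm9. Depth was estimated from single-read steps of genes with 1 transcript.

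Members and lists were chosen with earlier results of these data known. Values in every library are given for the 6 largest called differences per comparison and for core genes (Tomm20, Tomm40, Timm23, Hspd1, Hspe1, Hspa9, Lonp1, Phb), and other genes were named as the largest of their list, up to 4 per direction (3 for stress regulators). Tomm6, Tomm34, Atf4 and the respiratory chain genes were named after their values were seen. 4 symbols of the other lists were not matched in the table. Mesothelial, red blood cell and epididymal marker lists summed to at most 4.68, 11.1 and 3.63 FPKM, with Prm2 and Crisp1 at 0 in all libraries.

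For iWAT and eWAT, same-numbered libraries deviated together from their depot means (r = 0.634, 0.534 and 0.165 across genes). Each r exceeds 0.1, and by that rule the numbers were taken as pairs of these depots, from the values and not the labels. The main fit and the ratio tests did not use this pairing, which entered only in the alternative fits with a replicate block. Unmatched numbers of these depots gave -0.576 to 0.228, with iWAT 2 and eWAT 3 the highest, above the 0.165 of number 3. Between BAT and the white depots unmatched values reached 0.374 (BAT 2 and eWAT 1), so the rule cannot establish pairing. The same-number values were -0.324, -0.225 and 0.121 for BAT and iWAT and -0.388, -0.202 and 0.103 for BAT and eWAT.

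Each choice was varied in turn: a smaller pseudocount (0.1), a filter dropped or raised to a mean of 5 FPKM, scaling by median ratios or by quantiles, separate fits for each pair of depots, array weights, a block for replicate number, calls beyond a 2-fold change, and leaving out every library once. Leaving out eWAT 2 and 3, and the block in a fit of iWAT and eWAT alone, were added after the data were seen.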

Additional observations from a re-analysis of the deposited data

How the results depend on the processing

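For BAT against iWAT the count of the 40 genes called stayed between 33 and 36 under all 18 alternatives, and for BAT against eWAT between 26 and 35 under the planned ones. Added after the data were seen, a fit without eWAT 2 and 3 called 18 of the 40 in BAT against eWAT (1411 of all genes) and 0 in iWAT against eWAT (27 of all genes). Between the white depots the 1 call became 0 with the smaller pseudocount (0.1), with the filter dropped or set to 5 FPKM, with either other scaling, with only these depots fitted, or the replicate block in a fit of these depots alone (152 of all genes), and 16 with array weights. Leaving out 1 library gave 0 to 22. With the replicate block in the full limma fit the counts were 35, 32 and 1 of the 40. In the comparisons with BAT, Oma1 passed against iWAT (adjusted p = 0.0372) and Clpp against eWAT (adjusted p = 0.0424). The numbers were not taken to pair BAT with the white depots. The blocked fit changed no count of the 40 by over 1.5 times.

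Over all genes tested, calls in BAT against iWAT went from 5961 of 10374 genes to 3783 of 5934 with the filter at 5 FPKM. That filter tests fewer genes, so these counts do not show a loss of calls by themselves. In BAT against eWAT they went from 3492 to 2244 with that filter, to 6625 with array weights, and to 2141 to 4422 with 1 library left out. In iWAT against eWAT they went from 180 to 90 (pseudocount 0.1), 93 (no filter, 19409 genes tested), 79 (filter at 5 FPKM, 5934 genes tested), 113 (median-ratio scaling), 28 (only these depots), 1970 (array weights) and 15 to 3315 with 1 library left out. Median-ratio and quantile scaling moved the median of all genes in BAT against iWAT from 0.23 to 0.04 in both cases, and that of the 40 from 1.72 to 1.48 and 1.24. In iWAT against eWAT they moved the median of all genes from -0.18 to 0.00 and -0.02, and that of the 40 from -0.44 to -0.20 and -0.27, and the split of higher to lower calls from 24 and 156 to 32 and 81 and to 42 and 99.

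The log2 differences that changed sign all belonged to genes or ratios that had not passed the threshold. With median-ratio scaling they were Yme1l1 -0.0015 and Htra2 -0.056 in BAT against iWAT, and Tomm40 0.058, Timm10 0.057, Timm44 0.15, Hspe1 0.24, Hspa9 0.20, Pmpcb 0.070 and Afg3l2 0.10 in iWAT against eWAT. With quantile normalization they were Htra2 -0.13 in BAT against iWAT, and Tomm6 -0.31 in BAT against eWAT, and Tomm40 0.025, Timm10 0.013, Timm44 0.080, Hspe1 0.26, Hspa9 0.14, Pmpcb 0.046 and Afg3l2 0.036 in iWAT against eWAT. With array weights they were Tomm34 0.13 in BAT against iWAT, and Oma1 0.13 in BAT against eWAT. Without eWAT 2 and 3 they were Tomm20 0.17 in BAT against eWAT, and Timm10 0.020, Hspe1 0.13, Hspa9 0.093 and Afg3l2 0.27 in iWAT against eWAT. With 1 library left out, those that changed sign are given by their range. In BAT against iWAT they ran as Tomm34 -0.14 to 0.20, Yme1l1 -0.011 to 0.34, Hspd1/Hspe1 ratio -0.10 to 0.062, Clpp/Clpx ratio -0.12 to 0.32 and Timm8b/Timm8a1 ratio -0.53 to 0.16. In BAT against eWAT they ran as Oma1 -0.17 to 0.20 and Tomm20 -0.25 to 0.014. In iWAT against eWAT they ran as Tomm20 -0.019 to 0.28, Hspe1 -0.095 to 0.16, Hspa9 -0.11 to 0.012, Yme1l1 -0.062 to 0.31, Timm44 -0.28 to 0.039, Afg3l2 -0.36 to 0.076, Htra2 -0.080 to 0.095, Tomm70a -0.093 to 0.27 and Grpel1/Grpel2 ratio -0.998 to 0.22. Whether depth limited the calls of low genes was not tested.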
